A study of Rattus norvegicus with 6 samples.

Results

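Vascular calcification is held in check in the artery wall by a small group of inhibitors and driven by factors borrowed from bone and cartilage. The genes described here are 8 such regulators: the inhibitors Tnfrsf11b, Mgp, Enpp1 and Spp1, the mineralizing enzyme Alpl, and the osteochondrogenic transcription factors Runx2, Sox9 and Msx2. Members were all probe sets annotated with exactly 1 of these symbols. That rule gave 8 of 31042 probe sets, covering 6 of the 8 genes, out of 14217 genes named in the series. Runx2 and Sox9 are not analysed here, since the annotation used names no probe set by either symbol alone. Tnfrsf11b, Spp1, Mgp, Enpp1 and Alpl had 1 probe set each and Msx2 had 3.

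The samples were RNA from rat aortic smooth muscle cells at passage 3 to 5, on 6 arrays. The 3 static cultures were kept without flow, and the 3 shear cultures were confluent monolayers that spent 24 h in a parallel-plate chamber under laminar flow, at a shear stress of 14 dyn per square centimetre. All 6 had first spent 24 h in medium in which 0.1% albumin replaced 10% serum, so both groups were serum-deprived. The comparison addresses which transcripts differ under arterial levels of shear. The labels pair the cultures 1 to 3 but do not say what a pair shared, nor the animals or strain behind them. The p-values therefore reflect only how much these 6 samples vary, and that variation may be technical. Chamber and flow cannot be told apart.

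As background, smooth muscle cells make matrix Gla protein (Mgp), which needs vitamin K-dependent carboxylation to hold back mineral. Enpp1 makes extracellular pyrophosphate, an inhibitor of hydroxyapatite growth, and tissue-nonspecific alkaline phosphatase (Alpl) degrades it. Osteoprotegerin (Tnfrsf11b) is a soluble decoy receptor for RANKL and TRAIL, and osteopontin (Spp1) is a phosphorylated matrix protein that binds integrins, CD44 and mineral. When arterial cells mineralize they take on Runx2, Sox9, Msx2 and alkaline phosphatase, as osteoblasts and chondrocytes do.

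Values are MAS5 signals on a linear scale. Changes are differences, shear minus static, on the log2(signal + 16) scale, and a gene was called when limma's Benjamini-Hochberg adjusted p was under 0.05. Of 21729 probe sets tested, 52.8% were called, so a call by itself does not set a gene apart here. Nor do groups that do not overlap, which 60.0% of tested probe sets had, in either direction. Among called probe sets 46.1% were higher under shear, and 59.1% were when each array was centred on its median. Of the 8 regulator probe sets, 4 passed the filter on dim signals. Among those 4, Tnfrsf11b and Spp1 fell (28.5% of tested probe sets did), Mgp rose (24.3% did) and Enpp1 did not pass. Alpl and the 3 Msx2 probe sets lay below the filter limit, a signal of about 6.7. Markers of smooth muscle identity moved as well: 5 of 7 fell and 0 rose, and their part in the results was not tested.

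**Figure D1:**
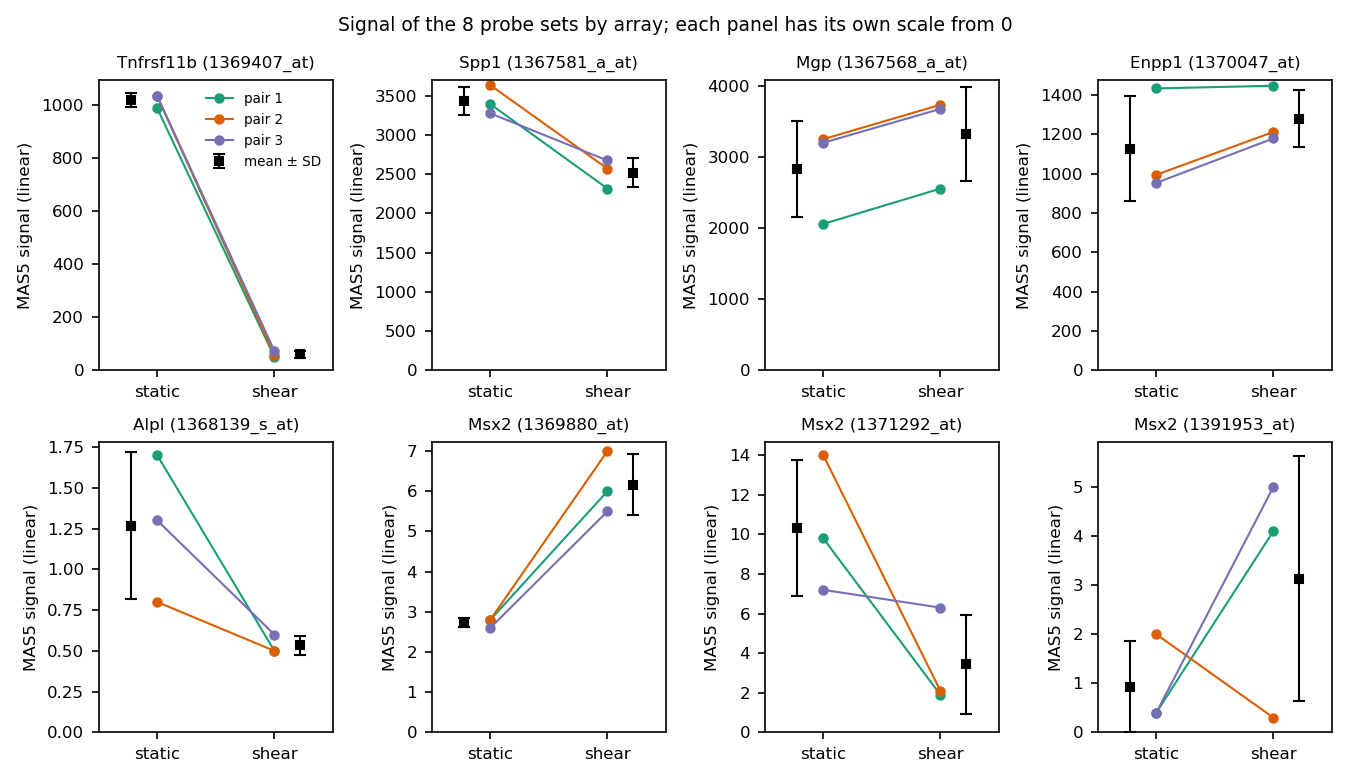
Linear MAS5 signal of each regulator probe set on the 6 arrays, static at left and shear at right. Coloured lines join the cultures of a pair, and black squares with bars are the mean and SD of 3 arrays. Tnfrsf11b drops from about 1018 to 59.3, Mgp rises in each pair although the groups overlap, and Alpl and Msx2 stay at 14 or below.

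Osteoprotegerin was the regulator with the largest change. Tnfrsf11b had signals of 987.3, 1032.9 and 1033.9 in static cultures 1 to 3 and of 49.2, 56.6 and 72.0 in shear cultures 1 to 3. Every shear array was far below every static array, and the static arrays lay close together. Groups without overlap, in either direction, were seen for 60.0% of tested probe sets. The mean fell from 1018 ± 26.6 to 59.3 ± 11.6 (SD, n = 3 each), which is 17.2-fold lower. On the log2 scale it fell by 3.79 (95% interval -4.04 to -3.54, limma adjusted p = 1.2e-06), with -3.94, -3.85 and -3.58 in pairs 1 to 3. It ranked 14 among the 21729 tested probe sets, counted from the most fallen. With a pseudocount of 64 the change was -3.14 and with 1 it was -4.10, so its size depends on that choice. In RNA from whole cultures, fewer cells expressing a gene and less RNA per cell cannot be told apart.

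RANKL and TRAIL, the ligands that osteoprotegerin binds, were too dim to test. Of 5 genes in the list of RANKL, TRAIL and their receptors, 4 had a probe set and 3 of these lay below the filter. RANKL itself, Tnfsf11, had signals of 2.20 ± 1.80 in static and 2.87 ± 2.18 in shear cultures (SD, n = 3). The receptor RANK, Tnfrsf11a, had 4.47 ± 2.56 and 2.60 ± 1.97, and TRAIL, Tnfsf10, had 1.57 ± 0.404 and 2.20 ± 1.42. Traf6, the adaptor that carries the RANK signal inside cells, rose on all 4 of its probe sets. On the brightest, its signal went from 72.2, 59.4 and 54.3 to 146.8, 276.9 and 258.1, a log2 change of 1.60 (adjusted p = 0.00046). Shear culture 1 rose least, by 0.88, against 1.96 in each of the other two pairs.

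The matrix inhibitor Mgp rose slightly and its carboxylation machinery was split. Mgp had signals of 2055.9, 3248.3 and 3197.1 in static cultures 1 to 3 and of 2552.9, 3731.2 and 3673.8 in shear cultures 1 to 3. The groups overlapped, because both cultures of pair 1 were lower than the other four, but the shear array was above its partner in 3 of 3 pairs. The shear to static ratio was 1.24, 1.15 and 1.15 in pairs 1 to 3. The mean was 2834 ± 674 against 3319 ± 664 (SD, n = 3 each), and the paired log2 change was 0.24 (95% interval 0.11 to 0.36, adjusted p = 0.0067). Without the pair as a block the same difference had an interval of -0.20 to 0.67 (adjusted p = 0.33). After quantile normalization it was 0.09 (adjusted p = 0.21). It was 0.24 without the intensity trend (adjusted p = 0.097), and without pair 3 it was 0.25 (adjusted p = 0.066). The rise of Mgp passed in 9 of the 14 alternatives.

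Of 9 genes in the list of vitamin K enzymes and other inhibitors, all had a probe set and 7 were tested: 2 rose, 4 fell and 1 did not pass, with a median of -0.44. Over all 11248 genes tested, 57.9% were called (27.8% rose and 30.1% fell), with a median of -0.05. The gamma-carboxylase Ggcx, which activates Mgp, had signals of 249.4, 269.8 and 262.5 in static and of 131.2, 142.7 and 164.1 in shear cultures, and fell by 0.78 (adjusted p = 0.00052). No shear array reached the static range, and groups were apart, in either direction, for 60.0% of tested probe sets. Vkorc1, which recycles vitamin K, fell by 0.44 (adjusted p = 0.0026), whereas its paralog Vkorc1l1 rose by 0.72 (adjusted p = 0.0010). Gas6, another Gla protein, fell by 2.39 and by 2.34 on a second probe set, while another was at -0.03 and did not pass. Fibrillin-1 (Fbn1), the backbone of elastic microfibrils, fell by 1.19 on its brightest probe set, and cystatin C (Cst3) rose by 0.61. Ucma, the Gla-rich protein, did not pass (-0.07). Fetuin-A (Ahsg) and klotho (Kl), made mainly in liver and kidney, lay below the filter.

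Enpp1 did not pass, and other genes of phosphate and pyrophosphate handling changed in both directions. Enpp1 had signals of 1433.0, 993.7 and 952.7 in static and of 1446.5, 1211.7 and 1178.7 in shear cultures 1 to 3. The groups overlapped, and in pair 1 both cultures were high and nearly equal. The ratio was 1.01, 1.22 and 1.24 in pairs 1 to 3. The mean was 1126 ± 266 against 1279 ± 146 (SD, n = 3 each), and the log2 change was 0.20 (95% interval 0.01 to 0.39, adjusted p = 0.072). An increase of up to 0.39 is inside that interval, so the data do not show that Enpp1 stayed level. It passed after median centring (0.35, adjusted p = 0.015) and without pair 1 (0.29, adjusted p = 0.00028), the latter with 1 residual degree of freedom.

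Of 11 genes in the phosphate and pyrophosphate list, 8 were tested: 4 rose, 2 fell and 2 did not pass, with a median of 0.34. Among all genes tested, 27.8% rose and 30.1% fell. Ankh, a membrane protein needed for extracellular pyrophosphate, rose from 163.1, 124.3 and 151.8 to 356.3, 710.3 and 756.5 (log2 change 1.88, adjusted p = 0.00032). A second Ankh probe set rose by 2.34. In pair 1 the change was 1.06, less than 2.37 and 2.20 in pairs 2 and 3, and without pair 1 it was 2.29. The sodium-phosphate importer Slc20a1 (PiT-1), which mineralization by smooth muscle cells in high phosphate depends on, rose from 1023.6, 1018.0 and 966.5 to 3717.6, 3270.6 and 3351.9. Its mean was 3.44-fold higher, and the log2 change of 1.76 (adjusted p = 1.8e-06) was similar in the 3 pairs (1.84, 1.67 and 1.78). The related importer Slc20a2 (PiT-2) rose by 1.35 and by 1.15 on its 2 probe sets. The phosphate exporter Xpr1 rose from 106 ± 5.64 to 147 ± 5.59 (SD, n = 3; 0.42, adjusted p = 0.013), a call lost without pair 2 (adjusted p = 0.12). The 3 shear arrays lay above the 3 static arrays for each of Ankh, Slc20a1, Slc20a2 and Xpr1, which was so, in either direction, for 60.0% of tested probe sets.

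Nt5e and Smpd3 were the genes of this list that fell. Nt5e (CD73), which turns AMP into adenosine and phosphate and whose loss in humans causes arterial calcification, fell from 144.9, 102.2 and 118.6 to 18.8, 48.1 and 52.4. All shear arrays were lower than any static array, shear culture 1 the most, and 60.0% of tested probe sets had groups apart in either direction. Its log2 change was -1.36 (adjusted p = 0.0023), and -0.93 without pair 1. Smpd3, a sphingomyelinase involved in skeletal mineralization and vesicle release, fell by 0.85 (adjusted p = 0.011), but by only 0.16 in pair 1, and did not pass without pair 3 (-0.65, adjusted p = 0.053). Enpp3 did not pass (0.27, adjusted p = 0.066), but it did in 5 of 14 alternatives, among them median centring (0.41, adjusted p = 0.012). Phospho1 (0.15) did not pass. Entpd1, Alpi and Abcc6, a transporter needed for the release of ATP and so of pyrophosphate, were below the filter.

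**Figure D2:**
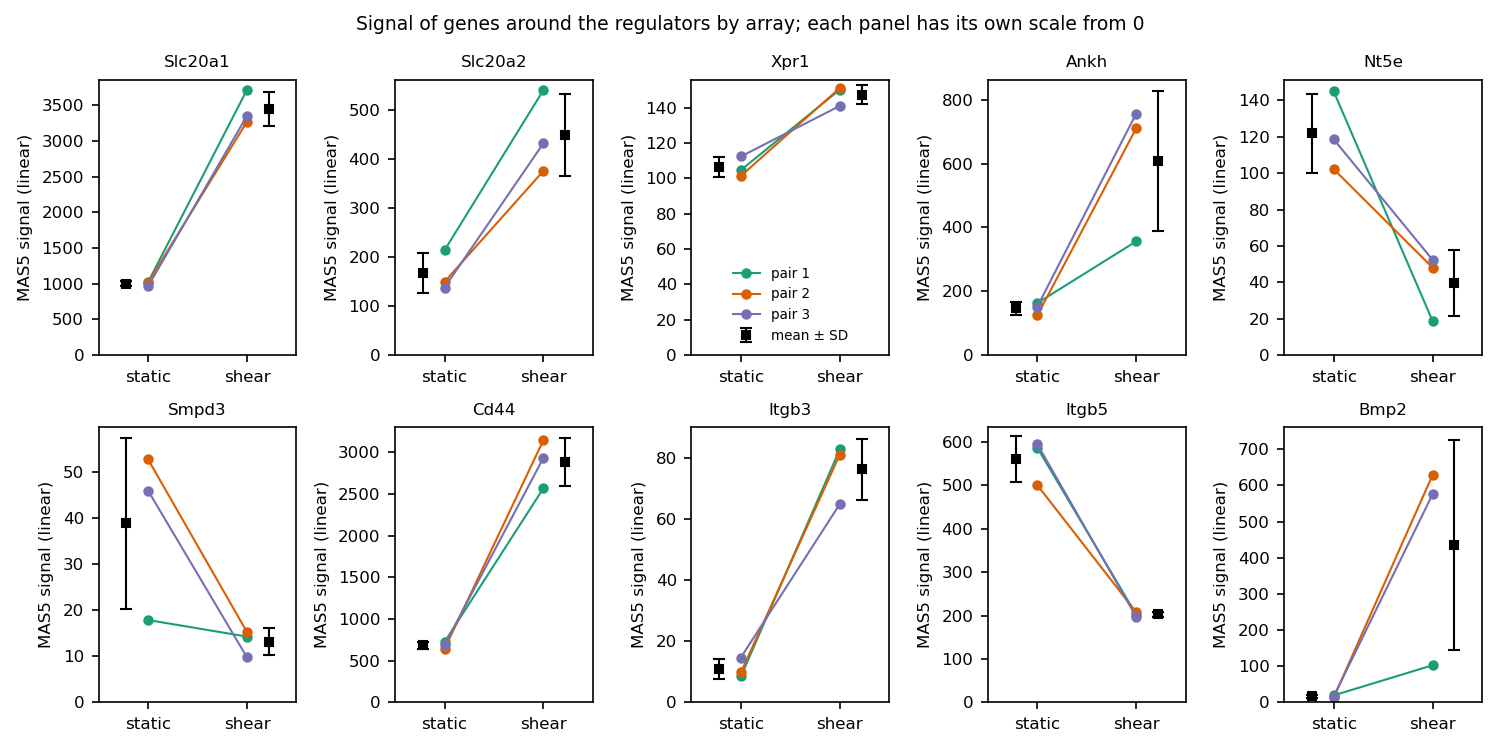
Linear MAS5 signal by array of 10 genes from the lists, picked for display after their values were seen. Lines join pairs and black squares with bars are mean and SD (n = 3). Slc20a1, Slc20a2, Xpr1, Ankh, Cd44, Itgb3 and Bmp2 are higher and Nt5e, Smpd3 and Itgb5 lower on every shear array than on any static array, with shear culture 1 lowest for Ankh, Bmp2, Cd44 and Nt5e among the shear arrays.

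Osteopontin fell moderately. Spp1 had signals of 3396.1, 3637.4 and 3278.5 in static cultures 1 to 3 and of 2317.8, 2572.6 and 2676.0 in shear cultures 1 to 3. The groups did not overlap, as for 60.0% of tested probe sets in either direction, and pair 3 differed least. The mean fell from 3437 ± 183 to 2522 ± 184 (SD, n = 3 each), a ratio of 0.734. The log2 change was -0.45 (95% interval -0.59 to -0.30, adjusted p = 0.00072), and it stayed between -0.60 and -0.30 and passed in all 14 alternative settings.

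Spp1 shares a stretch of chromosome 14 with bone sialoprotein (Ibsp), another acidic phosphoprotein of mineralized matrix, and Ibsp and osteocalcin (Bglap) are textbook osteoblast genes. The 250 bases before the start of these 3 genes, from RefSeq on build GRCr8, are shown since all 3 are read as markers of bone-like change. Spp1 was called here, Ibsp was dim and did not pass, and Bglap lay below the filter and was not tested. They lie at chr14:5619805-5620054 for Spp1, chr14:5757243-5757492 for Ibsp and chr2:176137319-176137568 for Bglap, all on the minus strand, and read 5′ to 3′ toward the gene. Capitals mark matches to a RUNX motif (TGTGGT or TGCGGT) or a TATA motif (TATAAA), searched on both strands.
Spp1: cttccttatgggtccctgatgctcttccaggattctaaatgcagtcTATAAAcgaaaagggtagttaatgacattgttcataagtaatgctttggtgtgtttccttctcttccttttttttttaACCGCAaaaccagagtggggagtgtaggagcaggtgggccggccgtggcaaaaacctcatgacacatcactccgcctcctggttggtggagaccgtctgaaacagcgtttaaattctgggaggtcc
Ibsp: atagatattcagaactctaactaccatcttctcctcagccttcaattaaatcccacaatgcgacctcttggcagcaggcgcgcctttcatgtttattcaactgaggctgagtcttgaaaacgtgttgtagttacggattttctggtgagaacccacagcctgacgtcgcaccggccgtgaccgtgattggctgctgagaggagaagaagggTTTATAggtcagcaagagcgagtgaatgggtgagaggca
Bglap: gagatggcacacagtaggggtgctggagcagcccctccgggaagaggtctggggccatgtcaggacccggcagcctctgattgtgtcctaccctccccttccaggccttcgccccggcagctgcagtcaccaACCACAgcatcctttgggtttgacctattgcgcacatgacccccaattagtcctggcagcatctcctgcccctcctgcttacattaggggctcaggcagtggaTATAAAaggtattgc

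In Spp1 the RUNX match lay on the opposite strand, 126 to 121 bases before the start, and the TATA match 204 to 199 bases before it. Ibsp had its TATA match on the opposite strand, 39 to 34 bases before the start, and no RUNX match in this window. Bglap had both, the RUNX match at 118 to 113 and the TATA match at 15 to 10 bases before the start. The matches did not overlap. Of 33469 promoters of the same length, 19.0% held the RUNX motif and 12.9% the TATA motif. The TEAD motif GGAATG (12.1% of promoters), the AP-1 motif TGANTCA (6.34%), the CRE motif TGACGTCA (1.59%) and the E-box CACGTG (5.59%) had no match in these 3 windows. A match is a description of letters and not a site of binding. Promoters were found for 4 of the 8 regulators.

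The receptors through which cells bind osteopontin changed in both directions. Of 9 genes in that list, 8 had a probe set and 7 were tested: 4 rose and 3 fell, with a median of 0.24. Among all genes tested, 27.8% rose and 30.1% fell. Cd44 had signals of 724.2, 640.6 and 688.7 in static and of 2569.8, 3147.4 and 2934.5 in shear cultures, and rose by 2.05 (adjusted p = 4.0e-06). Its groups were far apart on all 6 arrays, and 60.0% of tested probe sets had groups without overlap in either direction. Integrin beta 3 (Itgb3), which pairs with the alpha v subunit to bind osteopontin, rose from a low 11.0 ± 3.27 to 76.3 ± 9.88 (SD, n = 3; 1.77). Itga5 rose by 1.09 and Itgb1 by 0.24, although Itgb1 did not pass after quantile normalization (0.07) or without the intensity trend (adjusted p = 0.087). Itgb5, another partner of alpha v, fell from 560 ± 52.3 to 203 ± 5.25 (SD, n = 3; -1.40), and Itga8 fell by 1.34. The alpha v subunit Itgav had probe sets that disagreed: the brightest fell by 0.31 and the others rose by 1.29 and 1.31. Averaged across its 3 probe sets, Itgav rose (0.76, adjusted p = 0.00066), and the fall of the brightest did not pass after median centring or without pair 2 or pair 3.

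Alkaline phosphatase and Msx2 lay below the filter on every probe set. Alpl had signals of 1.7, 0.8 and 1.3 in static and of 0.5, 0.5 and 0.6 in shear cultures, and fitted without the filter its log2 change was -0.06 (adjusted p = 0.48). The shear arrays were lower, at values that cannot be told from background. Its single probe set is of the type that can detect related transcripts. The 3 Msx2 probe sets pointed in different directions. One had 2.8, 2.8 and 2.6 in static and 6.0, 7.0 and 5.5 in shear cultures. Another had 9.8, 14.0 and 7.2 against 1.9, 2.1 and 6.3, and the last had 0.4, 2.0 and 0.4 against 4.1, 0.3 and 5.0. Without the filter their log2 changes were 0.24, -0.44 and 0.17, with adjusted p = 0.066, 0.071 and 0.31. Groups did not overlap for Alpl and for 2 of the Msx2 probe sets, as for 17.2% of all probe sets below the filter. No direction can be given for Msx2, and a change of either gene was not detectable at these signals.

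Genes of the osteoblast program were mostly not called, whereas 57.9% of all 11248 genes tested were. Of 18 genes in the list of osteogenic factors and matrix, 16 had a probe set and 14 were tested: 2 rose, 0 fell and 12 did not pass in limma, with a median of 0.10. At an unadjusted p under 0.05, 2 were higher and 2 lower. The RUNX family member Runx1 rose by 0.30 (adjusted p = 0.031) and the stress and osteoblast factor Atf4 by 0.37 (adjusted p = 0.046). Each of these calls was lost in 7 of 14 alternatives. A second Runx1 probe set did not pass (0.21). The RUNX partner Cbfb did not pass on its brightest probe set (0.08) but rose on the other (0.56). The 2 Runx3 probe sets differed in sign (-0.35 and 0.44) without passing, though the brighter passed in 4 of 13 alternatives. Osteocalcin, Bglap, had signals of 0.4, 0.4 and 0.4 in static and 0.2, 0.4 and 0.2 in shear cultures. Bone sialoprotein, Ibsp, had 8.1, 8.1 and 0.8 against 8.6, 14.4 and 16.7, a difference that did not pass (0.44, adjusted p = 0.088) except without pair 1 and under both other scalings of the arrays. The homeobox factors Dlx3 (-0.33), Dlx5 (-0.22) and Msx1 (-0.32) did not pass, though Dlx3 did without pair 1 (-0.53). Twist1 (0.20) passed only after median centring and without pair 1. Osteonectin, Sparc, was at 3634 ± 369 and 3350 ± 174 (SD, n = 3) and did not pass (-0.11), except after quantile normalization (-0.28) and without pair 1. Collagen I, Col1a1, did not pass on its brightest probe set (-0.12) and fell on another (-1.06). Col1a1 passed in 3 of 14 alternatives.

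Of 12 cartilage genes, 10 had a probe set and 6 were tested: 0 rose, 2 fell and 4 did not pass in limma, with a median of -0.16. At an unadjusted p under 0.05, 1 was higher and 2 were lower. Among all genes tested, 57.9% were called. Aggrecan (Acan) fell from 41.6 ± 18.4 to 15.0 ± 13.7 (SD, n = 3; -0.93, adjusted p = 0.00059). Collagen XI (Col11a1) fell from 1289 ± 111 to 694 ± 73.4 (SD, n = 3; -0.88, adjusted p = 0.0003), on all 3 of its probe sets. Collagen II (Col2a1) did not pass (-0.28). Collagen X (Col10a1), a marker of hypertrophic cartilage, was at 19.3 ± 3.63 and 32.8 ± 14.4 and did not pass either (0.42, adjusted p = 0.070), while it passed after both other scalings and without pair 1. The cartilage matrix protein Comp (0.22) passed only after both other scalings.

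Ligands of the bone morphogenetic protein family, which induce Runx2 and Msx2 in vascular cells, changed in opposite directions. Of 16 genes in that list, 15 had a probe set and 13 were tested: 5 rose, 3 fell and 5 did not pass, with a median of -0.04. Among all genes tested, 27.8% rose and 30.1% fell. Bmp2 had signals of 19.4, 13.6 and 16.2 in static and of 102.8, 628.9 and 575.8 in shear cultures, and rose by 3.46 (adjusted p = 0.00045), or by 4.32 without pair 1. All shear arrays were higher, shear culture 1 the least, and a second probe set rose by 2.63. Groups were apart, in either direction, for 60.0% of tested probe sets. Bmp4 fell from 692 ± 20.9 to 288 ± 49.0 (SD, n = 3; -1.23), and Bmp6 fell by 0.86. The antagonists Grem1 (0.72) and Nog (0.54) rose, although the call of Nog was lost when pairs were ignored (adjusted p = 0.079) or taken as a random effect, without the filter, and without pair 2. The signal transducer Smad1 rose by 0.66 and the inhibitory Smad6 fell by 1.06. For Smad5 the direction depended on the probe set, with 0.84 and 0.74 on 2 of them and -1.02 and -1.22 on the other two. The receptors Bmpr1a, Bmpr2 and Acvr1 did not pass.

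**Figure D3:**
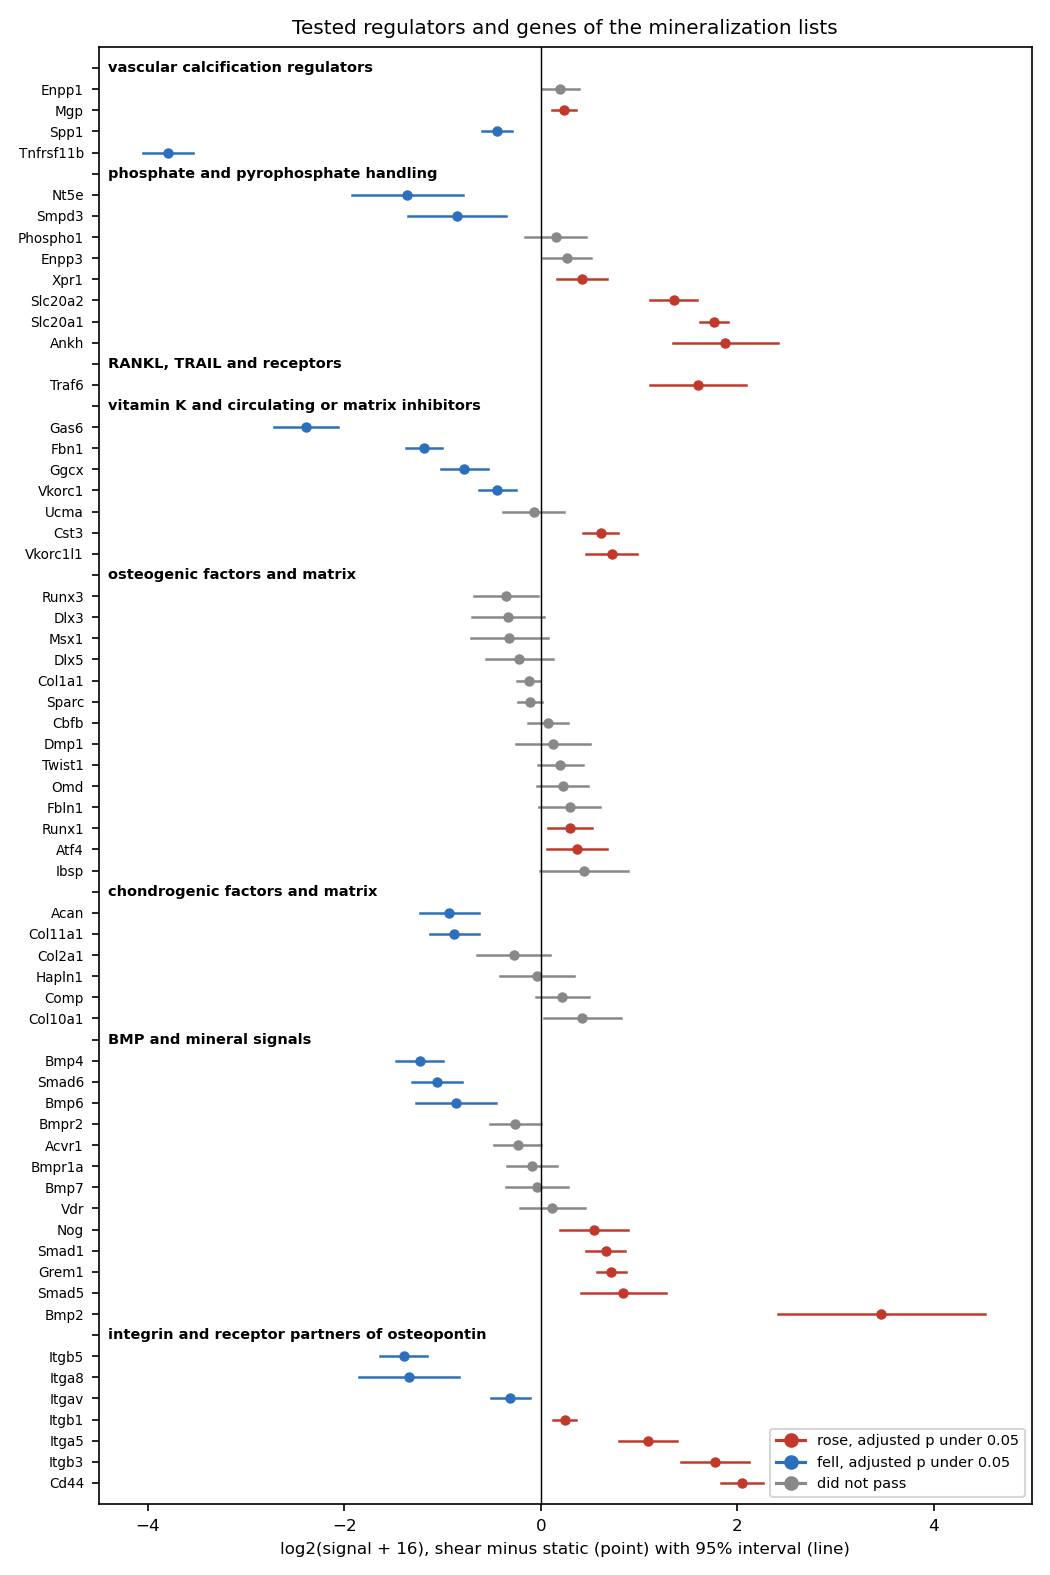
Log2(signal + 16) change, shear minus static, with its 95% interval for the 4 tested regulators and the tested genes of the 7 lists (brightest probe set of each gene), coloured by call. Tnfrsf11b at -3.79 lies far from Spp1, Mgp and Enpp1, which lie between -0.45 and 0.24, and the osteogenic list lies close to 0.

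The genes whose profile over the 6 arrays was most like that of each called regulator were found by the root mean square difference of centred log2 values. For Tnfrsf11b they were Cebpd, Cxcl12 and Rassf4, at 0.123, 0.182 and 0.206. Their log2 changes were -3.59, -3.48 and -3.57. For Spp1 they were Ireb2, Prdm16 and Cutal, at 0.0232, 0.0303 and 0.0306. For Mgp they were Omd, Rarres2 and Ptger4, at 0.0313, 0.0674 and 0.0792. None of these 3 passed by itself. Omd, a proteoglycan of bone, was at 0.22 (limma adjusted p = 0.13), Rarres2 at 0.20 (0.23) and Ptger4 at 0.25 (0.17). Ptger4 was dim, with mean signals of 8.1 in static and 12.3 in shear cultures. Like Mgp, Omd was lower in pair 1 than in the other pairs, at 32.4 against 63.5 and 61.7 in static and 43.1 against 75.3 and 72.2 in shear cultures.

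**Figure D4:**
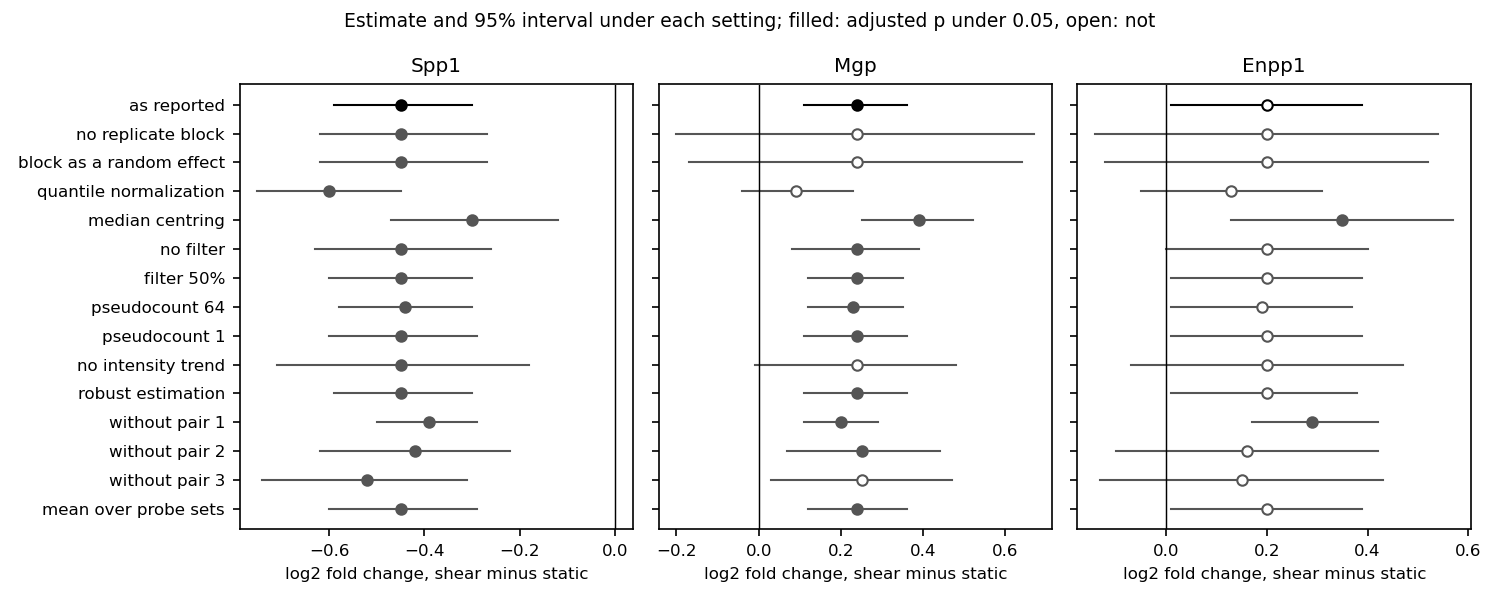
Log2 fold change (shear minus static) with 95% interval for Spp1, Mgp and Enpp1 as reported and under the 14 alternatives; filled points have an adjusted p under 0.05. Spp1 passes in all of them, Mgp loses its call in 5, and Enpp1 gains one in 2.

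The 6 arrays had median signals of 17.3 to 22.6, lower in each shear array than in any static one. Smooth muscle markers were present, with 7 of 7 above the filter. Of the 7, 5 fell under shear and 0 rose (30.1% and 27.8% of all genes tested), with a median of -1.04. Those that fell were Lmod1 (-2.01), Smtn (-1.11), Acta2 (-1.10), Myh11 (-1.04) and Cnn1 (-0.80), and each kept its call in all 14 alternatives. Tagln, the brightest, did not pass (0.07), nor did Des (0.01). Their summed signal, most of it Tagln and Acta2, was 4956 to 5599 in static and 3933 to 4074 in shear cultures. Of the osteoblast markers 4 of 5 had a probe set and 2 were above the filter. The 4 summed to 9.3 to 20.3 in static and 22.1 to 30.3 in shear cultures. All 4 were dim, with means of 13.2 or lower in either group, and the 2 tested did not pass. For chondrocytes 4 of 5 were above the filter (74.8 to 101.2 and 56.3 to 77.2). For osteoclasts it was 2 of 4 (276.1 to 304.0 and 350.4 to 369.4, most of it Ctsk). Of these, Acp5 rose from 33.4 to 52.9 (0.47, limma adjusted p = 0.021) and Ctsk did not pass (0.23, adjusted p = 0.083). Endothelial markers had 3 of 8 above the filter (93.0 to 98.0 and 76.4 to 95.9). These were Erg, the brightest (44.1 and 40.6), Esam (20.3 and 23.1) and Tek (15.8 and 13.9), and none passed. Pecam1, below the filter, was at 3.73 and 3.47. Leukocyte markers had 3 of 6 above the filter (168.8 to 231.5 and 116.1 to 160.0, most of it Cd14). Cd14 fell by 0.68 (limma adjusted p = 0.00096), whereas Cd68 rose from 10.1 to 25.8 (0.70, adjusted p = 0.0037). Cd3e did not pass, and Ptprc, below the filter, was at 1.43 and 1.87. The 6 fibroblast markers were all above the filter, and 3 fell, 1 rose and 2 did not pass, with a median of -0.70. Pdgfra fell by 2.25 and Scara5 by 1.18, and Twist2 fell from 37.8 ± 8.52 to 2.97 ± 2.29 (SD, n = 3). Dcn rose by 0.39, a call lost when pairs were ignored (adjusted p = 0.20). Their sums overlapped (5271 to 6991 and 4712 to 7440), with Lum (0.17, not passed) and Dcn the brightest. For the beta-actin control, the 3′ over 5′ signal had a log2 ratio of 0.255 ± 0.036 in static and 0.393 ± 0.028 in shear cultures (SD, n = 3; two-sided exact permutation p = 0.1, the smallest possible). For Gapdh it was 0.166 ± 0.0097 and 0.156 ± 0.0062 (exact permutation p = 0.3). The part of these other values in the results was not tested.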

How the data were processed

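The authors deposited MAS5 intensity values (per the submitters' processing notes), linear, 1 per probe set and array. Version, aligner and build are not given in the sources used here. Of 31099 probe sets, 57 controls were left out. Of the rest, 20826 had 1 symbol in the platform annotation, 436 several and 9780 none. Arrays were already scaled to a common trimmed mean. To each value 16 was added before log2, and the dimmest 30% of probe sets by mean were dropped. The shear minus static difference was estimated with limma 3.58.1 in R 4.3.3 (lmFit, then eBayes with intensity trend), the pairing number being a fixed block, with Benjamini-Hochberg adjustment over 21729 probe sets. The series design calls the experiment paired; deviations correlated by 0.071, 0.065 and 0.063 within pairs. A gene was represented by its brightest probe set. The number of arrays limits the precision. The fit was tested on simulated data in which far fewer probe sets changed than were called here. That test does not cover changes this broad. Figures used matplotlib 3.10.9.

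The regulators, the 7 gene lists, the marker lists and the tests were chosen with earlier results of these data known. The lists held 80 genes, of which 73 had a probe set and 56 were tested. The text names the regulators, most list genes by smallest p and then by signal, and the 3 nearest profiles of each called regulator. In the osteogenic list that order was not kept. Omd (0.22), Fbln1 (0.29) and Dmp1 (0.13), which did not pass, were left out of its paragraph although dimmer genes were named. Cell type markers beyond the brightest of each marker list were named after their values were seen.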

Additional observations from a re-analysis of the deposited data

How the results depend on the processing

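Tnfrsf11b and Spp1 kept direction and call in all 14 alternatives, from -4.10 to -3.14 and from -0.60 to -0.30. Mgp was always positive (0.09 to 0.39) but lost its call with no replicate block (0.24, adjusted p = 0.33), the pair as a random block (0.24), quantile normalization (0.09), no intensity trend (0.24) and without pair 3 (0.25, adjusted p = 0.066). With 1 pair left out it ranged from 0.20 to 0.25. Enpp1 gained a call after median centring (0.35) and without pair 1 (0.29, adjusted p = 0.00028) and ranged from 0.15 to 0.29 with 1 pair left out; with no replicate block it was 0.20 (adjusted p = 0.30). Called regulators numbered 2 to 4. The block changed no other regulator's call.

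Of 32 called list genes, 24 kept their call in every alternative run, and 13 of 24 that did not pass did so in at least 1. Averaging over probe sets reversed Smad5 (-0.16) and Itgav (0.76) and turned Runx3 to 0.04. Other sign changes were in genes that did not pass: after median centring Ucma (0.08), Sparc (0.04), Col1a1 (0.03), Hapln1 (0.11), Bmp7 (0.11) and Bmpr1a (0.06), after quantile normalization Ucma (0.02), Hapln1 (0.06), Bmp7 (0.08) and the marker Tagln (-0.09), and with a pair left out Tagln (-0.01 to 0.12), Dmp1 (-0.05 to 0.27), Hapln1 (-0.15 to 0.15) and Bmp7 (-0.12 to 0.03). Over the 21729 tested probe sets the median change was -0.067, and 0.021 and 0.082 after quantile normalization and median centring, with 46.1%, 52.4% and 59.1% of calls risen. Low signals limit Alpl, Msx2, Tnfsf11 and Bglap, and fits without a pair rest on 1 residual degree of freedom.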
